A study of Homo sapiens with 18 samples.

Results

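The genes that prepare, start and carry out DNA replication were followed in BJ cells, a line of fibroblasts from human skin, after knockdown or overexpression of PURPL, a long noncoding RNA. The set holds 50 genes, listed by symbol and chosen with earlier results of these data known. All 50 were found among the 61544 genes of both count tables. It was divided by role into 7 licensing genes, 12 helicase genes, 9 polymerase genes, 6 genes of the sliding clamp and its loader, 5 genes that bind or join single strands, 6 genes of nucleotide synthesis and 5 genes of fork protection and chromatin assembly. Enough counts for a test were found in each table for 48 of the 50.

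Poly(A) RNA was sequenced in 18 libraries that form 6 groups of 3. In the knockdown table, cells with CRISPR interference (a guided repressor that lowers transcription of its target) carried a control guide (sgCtrl) or a guide to PURPL, either sgPURPL-1 (called guide 1) or sgPURPL-2 (called guide 2). In the overexpression table, control cells (Ctrl) stood beside cells that overexpress PURPL, either PURPL-OE-1 (called line 1) or PURPL-OE-2 (called line 2). Among the overexpression libraries, 3 of line 1 and 2 of line 2 carry no replicate number and are called unnumbered. The series asks how PURPL bears on cellular senescence, a lasting halt of the cell cycle. All groups are the same cell line, and the labels name no drug, passage or harvest time, nor the promoter of the overexpression, nor whether a number after PURPL marks a clone, a construct or a pool. Nothing in them tells if the replicates of a group were grown apart, so each p-value reflects the spread among the samples at hand, possibly a technical one.

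In a dividing cell, the origin recognition complex (ORC1 to ORC6) marks replication origins, and CDC6 and CDT1 bring the ring of MCM2 to MCM7 onto them, which is called licensing. In S phase, CDC45 and the GINS complex join the ring to form the active helicase, polymerases alpha, delta and epsilon copy the strands, and PCNA, opened and placed by replication factor C, holds the polymerases on DNA. Deoxynucleotides come from ribonucleotide reductase and a few partner enzymes. Many of these genes are switched on together before S phase by E2F transcription factors, and fibroblasts that leave the cell cycle lower them together.

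The stretch before the start sites was read because E2F factors are known to bind there. RefSeq promoters of build GRCh38.p14 were at hand for 44 of the 50 genes and not for MCM4, MCM5, GINS4, POLD3, RPA2 and RPA3. The 250 bases before each start were searched on both strands for the E2F-type words TTTCCCGC and TTTGGCGC. At least one was found before any listed start in 14 of 44 members (31.8%) against 645 of 27305 genes (2.36%). These 27305 are all genes with a promoter at hand and were not limited to those with enough counts for a test. The 14 members were CDT1, GMNN, ORC3, MCM3, MCM6, MCM7, GINS2, POLA1, POLE, PCNA, RFC3, LIG1, DUT and TYMS. The word CCAAT stood before 28 of 44 members (63.6%) and 37% of all genes. The 160 bases before the start of 5 members from 4 of the roles are given 5′ to 3′ on the strand of the gene, with the E2F-type word or its reverse complement in capitals. They lie at chr6:24775253-24775412 (plus strand, GMNN), chr2:135876444-135876603 (minus, MCM6), chrX:24693758-24693917 (plus, POLA1), chr12:132687343-132687502 (minus, POLE) and chr20:5126623-5126782 (minus, PCNA).
GMNN: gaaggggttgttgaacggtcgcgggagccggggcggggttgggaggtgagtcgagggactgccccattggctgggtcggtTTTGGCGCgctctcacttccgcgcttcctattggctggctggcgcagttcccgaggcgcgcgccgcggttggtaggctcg
MCM6: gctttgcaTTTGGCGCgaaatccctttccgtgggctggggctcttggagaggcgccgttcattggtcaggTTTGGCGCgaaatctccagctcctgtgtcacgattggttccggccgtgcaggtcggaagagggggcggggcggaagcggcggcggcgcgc
POLA1: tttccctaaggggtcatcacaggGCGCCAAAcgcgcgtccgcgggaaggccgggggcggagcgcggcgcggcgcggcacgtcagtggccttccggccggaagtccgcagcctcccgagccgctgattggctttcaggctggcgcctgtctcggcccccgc
POLE: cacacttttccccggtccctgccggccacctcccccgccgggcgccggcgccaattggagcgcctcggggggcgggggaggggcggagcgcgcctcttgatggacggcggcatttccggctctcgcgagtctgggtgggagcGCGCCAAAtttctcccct
PCNA: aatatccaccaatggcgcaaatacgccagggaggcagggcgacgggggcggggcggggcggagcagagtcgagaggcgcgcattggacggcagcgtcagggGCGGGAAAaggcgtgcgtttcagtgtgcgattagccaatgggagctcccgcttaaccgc
MCM6 carries TTTGGCGC at a pair of places, 152 and 90 bases before its start. The word begins 80 bases before the printed start in GMNN, 137 in POLA1, 18 in POLE and 59 in PCNA. GMNN and PCNA each have another start with no such word before it, and the start with the word was chosen for print. A match describes letters and was not tested as a binding site.

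Knockdown libraries held 11444513 to 12896040 counts and overexpression libraries 18858976 to 27985649. PURPL, checked first, measured 71.1, 77.0 and 94.3 CPM (counts scaled to a common library total within each table) in sgCtrl, 14.1 to 17.9 with guide 1 and 17.9 to 21.5 with guide 2. It measured 59.2 to 67.3 CPM in Ctrl, 166 to 178 in line 1 and 114 to 129 in line 2, so no treated library overlapped its controls. All 12 listed fibroblast markers were detected in every group, while the summed CPM of the keratinocyte, endothelial and immune lists stayed at or below 15.1, 7.29 and 2.35. Of the 7 melanocyte markers 6 were under 1 CPM in each group, and the list summed to 50.8 to 60.9 CPM in sgCtrl, 70.8 to 77.5 with guide 1, 52.1 to 58.4 with guide 2, 52.1 to 55.7 in Ctrl, 70.8 to 78.1 in line 1 and 73.2 to 75.3 in line 2. The marker above 1 CPM, MITF, rose with guide 1 (log2 0.36), in line 1 (0.47) and in line 2 (0.46). Other non-fibroblast markers with an adjusted p under 0.05 against control went in both directions. CDH1 rose with guide 2 (1.73) and in line 1 (1.62), VWF with guide 1 (1.125) and TYRP1 in line 2 (3.23). TEK fell with guide 1 (-1.37), in line 1 (-0.72) and in line 2 (-1.51), and PECAM1 in line 1 (-1.63). The share of mitochondrial transcripts was 4.26% to 4.8% for Ctrl libraries and 4.97% to 6.24% for the lines, and that of the 10 most abundant genes 7.88% to 8.24% against 9.56% to 9.89%. The fibroblast markers summed to 23660 to 24170 CPM in Ctrl and 28740 to 32310 CPM in the lines, so these shares and sums moved with the overexpression results given next, as MITF did with those of guide 1 too. Their part in those results was not tested. In bulk RNA, fewer replicating cells and less RNA per replicating cell cannot be told apart.

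Replication genes were lower in every treated group. Together the 50 genes took 0.198% to 0.206% of all counts in the sgCtrl libraries, 0.161% to 0.162% with guide 1 and 0.152% to 0.153% with guide 2. They took 0.181% to 0.186% in Ctrl, 0.116% to 0.120% in line 1 and 0.123% to 0.128% in line 2. The groups of a table did not overlap. With guide 1, 33 of 48 tested members fell (68.8%, adjusted p under 0.05) and 1 rose, where 12.9% of the 13923 genes tested fell and 11.6% rose. Guide 2 gave 40 members lower and 1 higher, against 12.4% and 11.9% of genes. In line 1, 42 members fell and 0 rose, against 20.1% and 19.5% of 15267 genes, and in line 2, 39 fell and 0 rose, against 19.6% and 18.9%. The median log2 fold change of the tested members was -0.39, -0.50, -0.85 and -0.70 in that order, where the median of all genes tested was between 0.00 and 0.01 in size. Guides share the sgCtrl libraries and lines share the Ctrl libraries, so the 2 counts within a table are not independent. Of the 14 members with an E2F-type word, 11 fell with guide 1, 13 with guide 2, 13 in line 1 and 11 in line 2, and of the 28 tested members without one, 17, 22, 24 and 23 fell. The median log2 fold change was -0.37, -0.45, -0.73 and -0.57 with the word and -0.42, -0.52, -0.97 and -0.85 without it. Having or lacking the word does not tell whether E2F factors bind a gene, and their part in these changes was not tested.

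**Figure D1:**
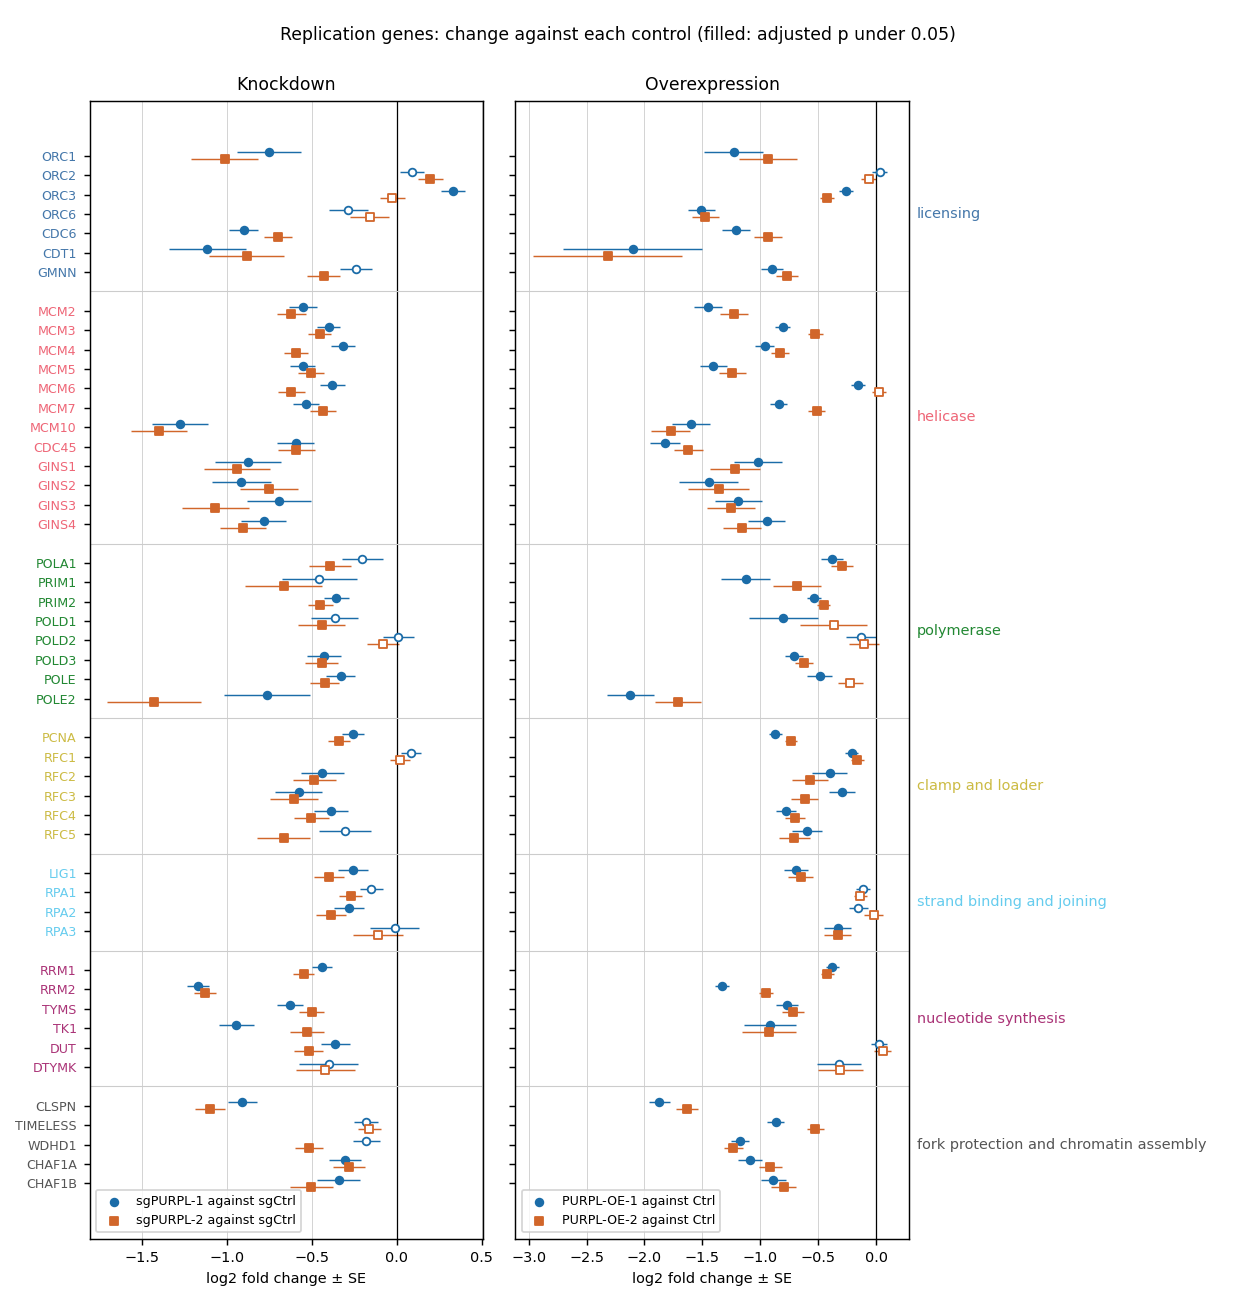
Log2 fold change with its standard error (x axis) of the 48 tested genes (y axis, grouped by role, with names coloured by role), for each guide against sgCtrl on the left and each line against Ctrl on the right. Filled symbols passed an adjusted p of 0.05. Most symbols lie left of 0, while ORC2, RFC1, POLD2 and RPA3 lie near 0 on the left and ORC2, MCM6 (line 2), POLD2, RPA2 and DUT near 0 on the right; circles are guide 1 or line 1 and squares guide 2 or line 2.

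The licensing genes did not move as one. CDC6 and CDT1, which load the MCM ring, fell in all 4 comparisons, as did ORC1, the regulated large subunit of the origin recognition complex. ORC6, the smallest subunit, passed the test with overexpression and with neither guide, and ORC2 and ORC3, subunits of the complex core, were the only members that rose with a guide. In all, 3 of 7 licensing genes fell with guide 1, 4 with guide 2, and 6 in each line.

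CDC6 measured 36.3, 40.5 and 36.5 CPM in sgCtrl, 19.6, 20 and 21.1 with guide 1, and 22.9, 23.8 and 23.0 with guide 2. Both guides lay below every control library, at a log2 fold change of -0.90 ± 0.0837 (SE, adjusted p = 8.49e-10) and -0.70 ± 0.0822 (adjusted p = 1.09e-07). It measured 16.1, 18.2 and 19.5 CPM in Ctrl, 6.61 to 8.70 in line 1 and 7.95 to 11.4 in line 2, which left 43.4% and 52.3% of the control level.

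CDT1 had the largest mean change of the licensing genes in both tables. It measured 5.64, 5.06 and 3.84 CPM in sgCtrl, 2.26, 1.82 and 2.62 with guide 1, and 2.64, 3.27 and 1.96 with guide 2, and no treated library reached its controls. It fell by 1.12 ± 0.227 (log2, adjusted p = 0.000374) with guide 1 and by 0.88 ± 0.220 (adjusted p = 0.00328) with guide 2. In the overexpression table the gene rested on only 65 counts over 9 libraries, at 0.507, 0.938 and 0.465 CPM in Ctrl, 0.107, 0.18 and 0.158 in line 1, and 0.320, 0.0926 and 0 in line 2. The log2 fold changes were -2.10 ± 0.599 (adjusted p = 0.0056) and -2.32 ± 0.643 (adjusted p = 0.00463). Without Ctrl replicate 2 they were -1.70 and -1.91 and both calls were lost.

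ORC1 fell by 0.75 ± 0.188 (log2) with guide 1 and by 1.01 ± 0.195 with guide 2 (adjusted p = 0.00335 and 0.000203), and left 42.6% and 52.4% of the Ctrl level in the lines. Without sgCtrl replicate 2 the guide 1 value was -0.54 and did not pass. ORC6 measured 19.4, 19.1 and 16.4 CPM in sgCtrl, 14.4 to 15.5 with guide 1, and 13.1, 17.4 and 18.6 with guide 2, so guide 2 overlapped the control. Neither change passed (adjusted p = 0.069 and 0.339), and that of guide 1 passed at -0.36 without sgCtrl replicate 3 and at -0.29 with only sgCtrl and guide 1 in the fit. In the overexpression table ORC6 measured 13.7, 13.4 and 13.5 CPM in Ctrl, 4.33, 4.59 and 5.38 in line 1, and 5.33, 4.77 and 4.59 in line 2. That is a fall to 35.1% and 36.0% of Ctrl (log2 -1.51 ± 0.117 and -1.47 ± 0.119, adjusted p = 5.97e-12 and 1.89e-11).

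ORC3 measured 40.9, 37.5 and 36.6 CPM in sgCtrl, 46.8, 48.7 and 49.0 with guide 1, and 37.6, 36.9 and 38.2 with guide 2. Guide 1 lay above every control library and guide 2 among them, and the log2 fold changes were 0.33 ± 0.0722 (adjusted p = 0.000865) and -0.03 ± 0.0739 (adjusted p = 0.833). In the lines ORC3 fell from 59.1 to 60.4 CPM in Ctrl to 46.7 to 53.2 and 42.2 to 45.8 CPM, to 83.7% and 74.6% of the control. ORC2 rose with guide 2 by 0.20 ± 0.0724 (log2, adjusted p = 0.046), a call lost without sgCtrl replicate 1 or 2 or guide 2 replicate 2 or 3 (0.15 to 0.21), and in 4 other settings. It was at 0.03 ± 0.0648 and -0.06 ± 0.0657 in the lines, neither of which passed. GMNN, geminin, which holds CDT1 inactive after licensing, fell with guide 2 (log2 -0.43 ± 0.0973, adjusted p = 0.00134) and in both lines, to 53.7% and 58.7% of Ctrl. Its guide 1 value of -0.24 ± 0.0956 missed the threshold (adjusted p = 0.0678) and passed at -0.27 without sgCtrl replicate 3.

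**Figure D2:**
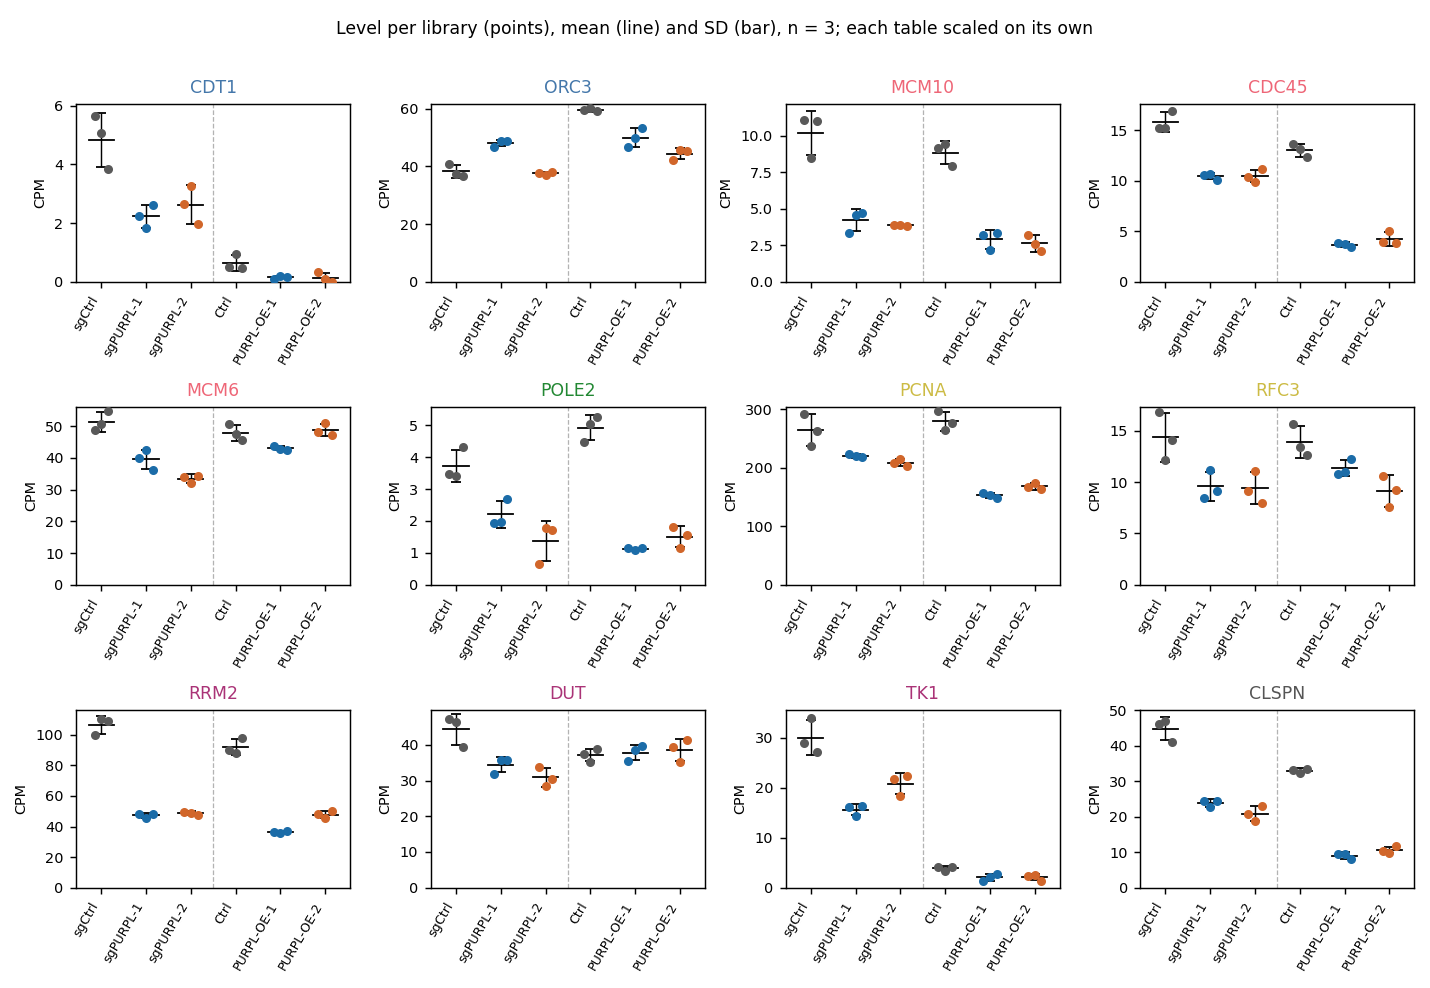
Level in CPM (y axis, from 0) of 12 replication genes in each library (points) by group (x axis), with the mean as a line and the SD as a bar (n = 3 each); the dashed line parts the knockdown from the overexpression table. CDT1, MCM10, CDC45, POLE2, RRM2 and CLSPN are lower in every treated group, ORC3 stands above its control with guide 1, and MCM6 and DUT in the lines stay near Ctrl.

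Nearly all helicase genes were called lower, by differing amounts. All 12 fell with either guide, all 12 in line 1 and 11 of 12 in line 2, with medians of 67.1%, 65.1%, 46.5% and 42.9% of the control level. Within the role, the 4 GINS genes had median log2 fold changes of -0.83 and -0.92 with the guides and MCM2 to MCM7 of -0.47 and -0.55, a description with no test between genes.

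MCM10, which helps to turn the loaded ring into a moving helicase, had the largest mean fall of the helicase genes with knockdown. It measured 11.1, 8.48 and 11 CPM in sgCtrl, 3.35, 4.60 and 4.71 with guide 1, and 3.88, 3.86 and 3.84 with guide 2. The treated libraries lay below 5 CPM and every control above 8 CPM. The fall was 2.42-fold with guide 1 (log2 -1.28 ± 0.163, adjusted p = 4.01e-07) and 2.64-fold with guide 2 (-1.4 ± 0.166, adjusted p = 1.3e-07). Among the overexpression libraries MCM10 went from 7.95 to 9.42 CPM in Ctrl to 2.16 to 3.32 in line 1 and 2.09 to 3.20 in line 2, that is 33.0% and 29.3% of the control.

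CDC45, the helicase subunit that joins at the start of S phase, had the largest mean fall of the helicase genes with overexpression. It measured 13.6, 13.1 and 12.3 CPM in Ctrl, 3.86, 3.73 and 3.44 in line 1, and 3.89, 5 and 3.81 in line 2. It fell 3.54-fold and 3.08-fold (log2 -1.82 ± 0.127 and -1.62 ± 0.127, adjusted p = 4.72e-13 and 8.75e-12). With the guides it went from 15.2 to 16.9 CPM in sgCtrl to 10.1 to 10.6 and 9.90 to 11.1, at 66.2% and 66.4% of the control level.

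The 6 subunits of the MCM ring act together in equal number, and their transcripts had different fold changes with overexpression, which were not tested against each other. MCM2 went from 12.7 to 14.1 CPM in Ctrl to 4.47 to 5.14 in line 1 and 4.71 to 6.53 in line 2, and left 36.5% and 42.8%. MCM5 left 37.7% and 42.3%, MCM4 51.3% and 56.3%, MCM7 55.9% and 70.1%, and MCM3 57.2% and 69.4%. MCM6 measured 50.6, 47.5 and 45.6 CPM in Ctrl, 43.8, 42.9 and 42.6 in line 1, and 48.2, 50.9 and 47.3 in line 2. Line 1 lay just below the control libraries and line 2 among them. The line 1 value of -0.15 ± 0.0614 just passed (adjusted p = 0.0458). It did not pass without Ctrl replicate 1 or 2 or any 1 of the line 1 libraries (-0.17 to -0.11), with DESeq2 or with no filter on low counts. In line 2 MCM6 was at 0.02 ± 0.0616 (adjusted p = 0.799).

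With knockdown the same 6 genes lay closer together. MCM6 measured 48.8, 50.7 and 54.9 CPM in sgCtrl, 39.9, 42.4 and 36.3 with guide 1, and 34.1, 32.0 and 34.4 with guide 2. Its fall to 76.9% and 65.1% of sgCtrl (adjusted p = 0.000317 and 3.05e-07) was within the range of the other 5, which left 68.1% to 80.3% with guide 1 and 65.1% to 73.9% with guide 2. MCM2 left 68.3% and 65.1%, MCM3 75.8% and 73.0%, MCM4 80.3% and 66.3%, MCM5 68.1% and 70.5%, and MCM7 69.0% and 73.9%.

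GINS1 to GINS4, the 4 subunits that clamp CDC45 to the ring, all fell in all 4 comparisons. GINS4 measured 12.9, 11.4 and 12.5 CPM in sgCtrl, 7.55, 6.5 and 7.32 with guide 1, and 7.35, 6.04 and 6.26 with guide 2, and left 58.1% and 53.5%. GINS1, GINS2 and GINS3 left 54.5%, 53.1% and 62.0% with guide 1 and 52.2%, 59.4% and 47.7% with guide 2. In the lines the 4 left 36.7% to 52.0% (line 1) and 39.0% to 44.9% (line 2), where GINS2 was lowest in both.

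Among the polymerase genes, 4 of 8 tested fell with guide 1, 7 with guide 2, 7 in line 1 and 5 in line 2. POLE2, the second subunit of polymerase epsilon (which copies the leading strand), fell most in both tables, and POLE, its catalytic subunit, had smaller changes. POLE2 measured 3.47, 3.42 and 4.31 CPM in sgCtrl, 1.95, 1.98 and 2.70 with guide 1, and 0.661, 1.76 and 1.72 with guide 2. No treated library reached the control, at log2 fold changes of -0.76 ± 0.253 (adjusted p = 0.0258) and -1.43 ± 0.276 (adjusted p = 0.000225). The guide 1 call was lost with DESeq2 and without sgCtrl replicate 3 or guide 1 replicate 1 or 2 (-0.70 to -0.65). In the overexpression groups POLE2 measured 4.48, 5.04 and 5.27 CPM in Ctrl, 1.15, 1.08 and 1.15 in line 1, and 1.81, 1.16 and 1.56 in line 2. It fell 4.35-fold and 3.27-fold (log2 -2.12 ± 0.202 and -1.71 ± 0.198, adjusted p = 5.07e-10 and 3.05e-08).

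POLE measured 32.5 to 33.5 CPM in sgCtrl, 24.1 to 29 with guide 1, and 22.6 to 25.7 with guide 2, a fall to 79.5% and 74.5%. In line 1 it left 71.3% of Ctrl (adjusted p = 0.000657), and in line 2 the value of -0.22 ± 0.11 did not pass (adjusted p = 0.11) but passed at -0.37 without the second unnumbered library of line 2. POLD3, an accessory subunit of polymerase delta, fell in all 4 comparisons, to 74.3% and 73.6% of sgCtrl and 61.1% and 65.0% of Ctrl. POLD2, another subunit of the same enzyme, passed in none, with values of 0.01 ± 0.0930, -0.08 ± 0.0937, -0.13 ± 0.128 and -0.11 ± 0.130. POLD1, the catalytic subunit, fell with guide 2 (-0.44 ± 0.139) and in line 1 (-0.80 ± 0.296). Its guide 2 call was lost without sgCtrl replicate 2 or guide 2 replicate 1 (-0.41 and -0.34), and its line 1 call, on 16 to 44 counts a library, was lost with DESeq2 and without Ctrl replicate 1 or 3 or the unnumbered libraries 1 or 3 of line 1 (-0.84 to -0.59). Its guide 1 value passed without sgCtrl replicate 1 (-0.41) and with limma-voom (-0.37).

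Polymerase alpha and primase lay the first stretch of each strand. PRIM2, the large primase subunit, measured 48.2, 52.3 and 54.6 CPM in sgCtrl, 40.4, 42.3 and 38.6 with guide 1, and 36.8, 38.4 and 38.5 with guide 2, and left 78.2% and 73.2%. It left 68.9% and 73.0% of Ctrl in the lines. PRIM1, the catalytic primase subunit, fell with guide 2 (log2 -0.67 ± 0.227, adjusted p = 0.0304) and to 45.9% and 62.3% of Ctrl in the lines. Its guide 2 call was lost with DESeq2 and without sgCtrl replicate 1 or 3 or any 1 guide 2 library (-0.70 to -0.59), and its line 2 call was lost without the unnumbered library 1 of that line (-0.50). POLA1, the catalytic subunit of polymerase alpha, fell with guide 2 (-0.39 ± 0.122, adjusted p = 0.0178) and to 76.7% and 81.6% of Ctrl. The POLA1 guide 2 call was lost without sgCtrl replicate 2 or 3 or guide 2 replicate 1 or 3 (-0.39 to -0.30), and its line 2 call without Ctrl replicate 2 or the unnumbered library 2 (-0.23 and -0.27). With guide 1, POLA1 passed only without sgCtrl replicate 1, at -0.34.

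POLA2, the second subunit of polymerase alpha, had 0 counts in all 18 libraries. A count of 0 allows up to 3 counts per library, which is 0.107 to 0.262 CPM over the libraries. The gene shares its strand and part of its span with another annotated gene. All 9425 genes that lie inside a same-strand gene also had 0 counts in every library, and the 0 of POLA2 is not read as a level. FEN1, the flap nuclease that trims Okazaki fragments, overlaps FADS2 on the same strand and had 16 counts over all knockdown libraries and 1 over all overexpression libraries. PRIM1, POLD1, POLD3 and CHAF1B also overlap a same-strand gene in part, and their counts are uncertain for that reason.

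The clamp and its loader had smaller median changes than the helicase, with 4, 5, 6 and 6 of 6 genes lower and median log2 fold changes of -0.35, -0.49, -0.50 and -0.66. PCNA, the ring that tethers polymerases to DNA, measured 292, 238 and 262 CPM in sgCtrl, 224, 220 and 218 with guide 1, and 209, 214 and 203 with guide 2. All 6 treated libraries lay below the lowest control, by -0.26 ± 0.0640 (log2, adjusted p = 0.00273) and -0.34 ± 0.0641 (adjusted p = 0.000149). The PCNA fall was deeper with overexpression, from 296, 265 and 278 CPM in Ctrl to 157, 153 and 149 in line 1 and 167, 175 and 163 in line 2. That left 54.8% and 60.2% of the control (log2 -0.87 ± 0.0526 and -0.73 ± 0.0526, adjusted p = 2.02e-14 and 1.25e-12).

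RFC1 to RFC5 form the loader that opens the PCNA ring. RFC3 had the largest mean fall with knockdown, from 16.8, 12.1 and 14.1 CPM in sgCtrl to 8.40, 11.2 and 9.15 with guide 1 and 9.17, 11.1 and 7.99 with guide 2. These values did not overlap, at log2 -0.58 ± 0.141 and -0.61 ± 0.141 (adjusted p = 0.00258 and 0.00182). RFC4 fell in all 4 comparisons, to 76.4% and 70.6% of sgCtrl and 58.3% and 61.5% of Ctrl. RFC2 fell in all 4 as well, to 73.7%, 71.4%, 75.7% and 67.3%, and RFC5 in 3, its guide 1 value of -0.30 ± 0.152 missing the threshold. RFC1, the large subunit, did not pass with either guide (0.08 ± 0.0599 and 0.02 ± 0.0600) and left 86.3% and 89.3% of Ctrl in the lines. Calls lost without 1 library were those of RFC2 with guide 1 (without guide 1 replicate 3, -0.40), of RFC2 in line 1 (without Ctrl replicate 1 or 2 or the unnumbered libraries 2 or 3, -0.43 to -0.32, and with DESeq2), of RFC3 in line 1 (without Ctrl replicate 1 or the unnumbered libraries 1 or 2, -0.27 to -0.20, and with DESeq2) and of RFC1 in line 2 (without Ctrl replicate 1 or the unnumbered library 1, -0.13 and -0.10, and with only Ctrl and line 2 in the fit).

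Genes that bind and join single strands had the smallest median changes of the 7 roles, and 2, 3, 2 and 2 of 4 tested fell. RPA1 to RPA3 make replication protein A, which coats single-stranded DNA also in repair, and their median left 90.1% and 82.8% of sgCtrl and 89.9% and 91.1% of Ctrl. RPA2 measured 41.6, 38.7 and 31.5 CPM in sgCtrl, 31.4, 31.5 and 28.9 with guide 1, and 28.1, 28.2 and 29 with guide 2. The guide 1 libraries touched the lowest control and those of guide 2 lay below it, at -0.28 ± 0.0884 (adjusted p = 0.0197) and -0.39 ± 0.0892 (adjusted p = 0.00154). The guide 1 call was lost without sgCtrl replicate 1 or 2 or guide 1 replicate 3 (-0.25 to -0.20), and RPA2 did not pass in the lines (-0.15 ± 0.0818 and -0.02 ± 0.0822). RPA1 passed only with guide 2, at 82.8% of control, and in line 2 without Ctrl replicate 3 or the unnumbered library 2 (-0.16 and -0.18). RPA3 passed only in the lines (79.5% and 79.4% of Ctrl). Both RPA3 calls were lost without Ctrl replicate 1 or 2, that of line 1 also without its unnumbered libraries 1 or 3 (-0.32 to -0.28), and that of line 2 without its unnumbered libraries 1 or 2 (-0.32 to -0.25).

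LIG1, the ligase that seals Okazaki fragments, was the exception in this group and fell in all 4 comparisons. It measured 29.1, 29.9 and 32.3 CPM in sgCtrl, 27.0, 25.9 and 23.4 with guide 1, and 22.6, 22.0 and 24.5 with guide 2, to 83.6% and 75.8% of control (adjusted p = 0.0271 and 0.000861). The guide 1 call was lost with DESeq2, with no filter on low counts, and without sgCtrl replicate 2 or 3 or guide 1 replicate 2 or 3 (-0.28 to -0.20). Among the overexpression libraries LIG1 measured 13.7, 11.6 and 13.4 CPM in Ctrl, 7.66, 8.18 and 8.15 in line 1, and 7.94, 7.82 and 8.85 in line 2. All 6 lay below the lowest control, at log2 -0.69 ± 0.107 and -0.65 ± 0.108 (adjusted p = 4.09e-06 and 1.41e-05).

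Of the 6 nucleotide synthesis genes, 5 fell with each guide and 4 in each line. RRM2, the subunit that limits ribonucleotide reductase in S phase, changed most in both tables. It measured 99.9, 110 and 109 CPM in sgCtrl, 48.3, 45.5 and 48.4 with guide 1, and 49.8, 49.0 and 47.4 with guide 2. It left 44.5% and 45.7% of control (log2 -1.17 ± 0.0660 and -1.13 ± 0.0659, adjusted p = 1.79e-14 and 3.85e-14). With overexpression it went from 89.9, 88.0 and 98.2 CPM in Ctrl to 36.7, 35.5 and 37.2 in line 1 and 47.9, 45.3 and 49.9 in line 2. The lines did not overlap each other, at 39.7% and 51.9% of Ctrl (log2 -1.33 ± 0.0610 and -0.95 ± 0.0603, adjusted p = 2.26e-17 and 7.5e-14).

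RRM1, the large subunit of the same enzyme, which is kept outside S phase as well, had smaller changes than RRM2 in each comparison, a description with no test between genes, and fell to 73.7% and 68.4% of sgCtrl and 77.0% and 74.7% of Ctrl (adjusted p = 1.72e-06, 4.79e-08, 1.4e-06 and 2.55e-07). TYMS, thymidylate synthase, left 64.8% and 70.6% of sgCtrl and 58.7% and 60.8% of Ctrl. TK1, the thymidine kinase of S phase, measured 29, 33.9 and 27.2 CPM in sgCtrl, 16.2, 14.3 and 16.4 with guide 1, and 21.8, 18.4 and 22.3 with guide 2. Guide 1 lay below guide 2 and guide 2 below the control, at 52.0% and 69.4%. In the overexpression groups, which were scaled apart, TK1 measured 4.09, 3.40 and 4.18 CPM in Ctrl, 1.32 to 2.81 in line 1 and 1.39 to 2.45 in line 2, and left 53.0% and 52.6% of Ctrl (adjusted p = 0.00177 and 0.00213).

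DUT, which removes dUTP and so keeps uracil out of DNA, fell with knockdown and not with overexpression. It measured 47.2, 46.5 and 39.3 CPM in sgCtrl, 32.0, 35.7 and 35.8 with guide 1, and 33.8, 28.5 and 30.5 with guide 2, with no overlap. It fell by 0.36 ± 0.0843 (log2, adjusted p = 0.00165) and by 0.52 ± 0.0854 (adjusted p = 2.61e-05). Among the overexpression libraries it measured 37.6, 35.3 and 38.7 CPM in Ctrl, 35.4, 38.6 and 39.6 in line 1, and 39.5, 35.1 and 41.3 in line 2. The 3 groups overlapped, at 0.03 ± 0.0712 and 0.06 ± 0.0718 (adjusted p = 0.808 and 0.581). DTYMK, thymidylate kinase, passed in none of the 4 comparisons, with log2 fold changes from -0.42 to -0.31, but passed with guide 1 at -0.71 without replicate 1 of that guide and with guide 2 at -0.43 with no filter on low counts.

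Fork protection and chromatin assembly genes fell moderately with the guides, 3 and 4 of 5, and all 5 fell in each line. CLSPN, claspin, which links the fork to the checkpoint kinase, led in both tables. It measured 46.2, 47.1 and 41.2 CPM in sgCtrl, 24.5, 22.7 and 24.4 with guide 1, and 20.7, 18.8 and 23.1 with guide 2, at log2 -0.91 ± 0.0859 and -1.10 ± 0.0874 (adjusted p = 1.19e-09 and 3.67e-11). In the overexpression groups it measured 33.3, 32.2 and 33.5 CPM in Ctrl, 9.52, 9.58 and 7.95 in line 1, and 10.3, 9.90 and 11.7 in line 2. The fall was 3.66-fold and 3.1-fold (log2 -1.87 ± 0.0941 and -1.63 ± 0.0938, adjusted p = 2.3e-16 and 6.97e-15).

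WDHD1, which couples the helicase to polymerase alpha, measured 31.0, 34.3 and 33.7 CPM in sgCtrl, 28, 29.2 and 30.4 with guide 1, and 23.1, 23.7 and 22.5 with guide 2. Guide 1 did not pass (log2 -0.18 ± 0.0803, adjusted p = 0.106) except without sgCtrl replicate 1, at -0.23, and guide 2 left 69.8%. In the lines it left 44.3% and 42.5% of Ctrl. TIMELESS, a fork protection subunit, passed with neither guide (-0.18 ± 0.0694 and -0.16 ± 0.0694, adjusted p = 0.0541 and 0.0907), and left 54.8% and 69.5% of Ctrl in the lines (adjusted p = 5.16e-11 and 9.14e-07). CHAF1A and CHAF1B, subunits of the factor that places histones behind the fork, left 81.0% and 78.9% with guide 1, 82.4% and 70.6% with guide 2, 47.0% and 54.1% in line 1, and 53.1% and 57.6% in line 2. The CHAF1A calls were lost without sgCtrl replicate 2 or guide 1 replicate 2 or 3 (-0.26 to -0.24), and for guide 2 without sgCtrl replicate 2 or 3 or guide 2 replicate 1 or 2 (-0.27 to -0.21). That of CHAF1B with guide 1 was lost without sgCtrl replicate 2 or 3 or guide 1 replicate 1 or 3 (-0.38 to -0.21), with DESeq2 and with only sgCtrl and guide 1 in the fit.

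Whether the 2 experiments changed a gene by different amounts was tested in a fit of all 18 libraries, as the mean log2 fold change of both guides minus that of both lines. A positive difference means that the gene stood lower against its control with overexpression than with knockdown. Of 48 members, 18 differed in that direction (37.5%) and 2 in the other, MCM6 and DUT, where 18% and 15.6% of the 15166 genes tested did. The member median was 0.24 and that of all genes 0.01.

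The 18 were ORC3, ORC6 and GMNN of the licensing genes, MCM2, MCM3, MCM4, MCM5 and CDC45 of the helicase, POLE2 of the polymerases, PCNA, RFC1 and RFC4, LIG1, and all 5 fork protection and chromatin assembly genes. ORC6 had the largest difference among them, 1.27 ± 0.142 (adjusted p = 7.27e-10), from means of -0.22 with knockdown and -1.49 with overexpression. CDC45 followed at 1.13 ± 0.140 (adjusted p = 8.85e-09), WDHD1 at 0.86 ± 0.0968 (adjusted p = 9.36e-10), POLE2 at 0.82 ± 0.28 (adjusted p = 0.0193) and MCM5 at 0.80 ± 0.115 (adjusted p = 2.85e-07). CLSPN differed by 0.75 ± 0.107 (adjusted p = 2.62e-07) and PCNA by 0.50 ± 0.0736 (adjusted p = 3.66e-07). In the other direction MCM6 differed by -0.43 ± 0.0832 (adjusted p = 5.69e-05) and DUT by -0.48 ± 0.0973 (adjusted p = 0.000123).

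Of the 6 nucleotide synthesis genes 0 differed toward overexpression, where 18% of all genes tested did. The polymerase role and that of strand binding and joining had 1 such gene each, POLE2 and LIG1. Both calls were lost in some fits without 1 library. With so few genes, the 0 is not read as a trait of the role. RRM2 differed by -0.00 ± 0.0764 (adjusted p = 0.98), RRM1 by -0.09 ± 0.0698, TYMS by 0.18 ± 0.103 and TK1 by 0.19 ± 0.201, none of which passed. CDT1 had a large and poorly measured difference of 1.21 ± 0.493 (adjusted p = 0.0529). It passed with DESeq2, with limma-voom and without any 1 of 6 libraries (sgCtrl replicate 1, guide 1 replicate 2, guide 2 replicate 3, Ctrl replicate 1 or 3, or the unnumbered library 1 of line 2, the last at 1.90). Differences lost without 1 library were those of RFC4 (0.22 to 0.28 without sgCtrl replicate 3, guide 1 replicate 2 or 3, guide 2 replicate 1 or 2, or Ctrl replicate 1 or 3, and with DESeq2 or no filter on low counts), RFC1 (0.20 without Ctrl replicate 1), MCM3 (0.17 to 0.23 without sgCtrl replicate 3 or Ctrl replicate 1 or 3), POLE2 (0.72 to 0.76 without sgCtrl replicate 2 or guide 2 replicate 2 or 3), LIG1 (0.29 and 0.31 without Ctrl replicate 1 or sgCtrl replicate 1) and CHAF1B (0.33 to 0.40 without sgCtrl replicate 1 or 2 or Ctrl replicate 3).

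**Figure D3:**
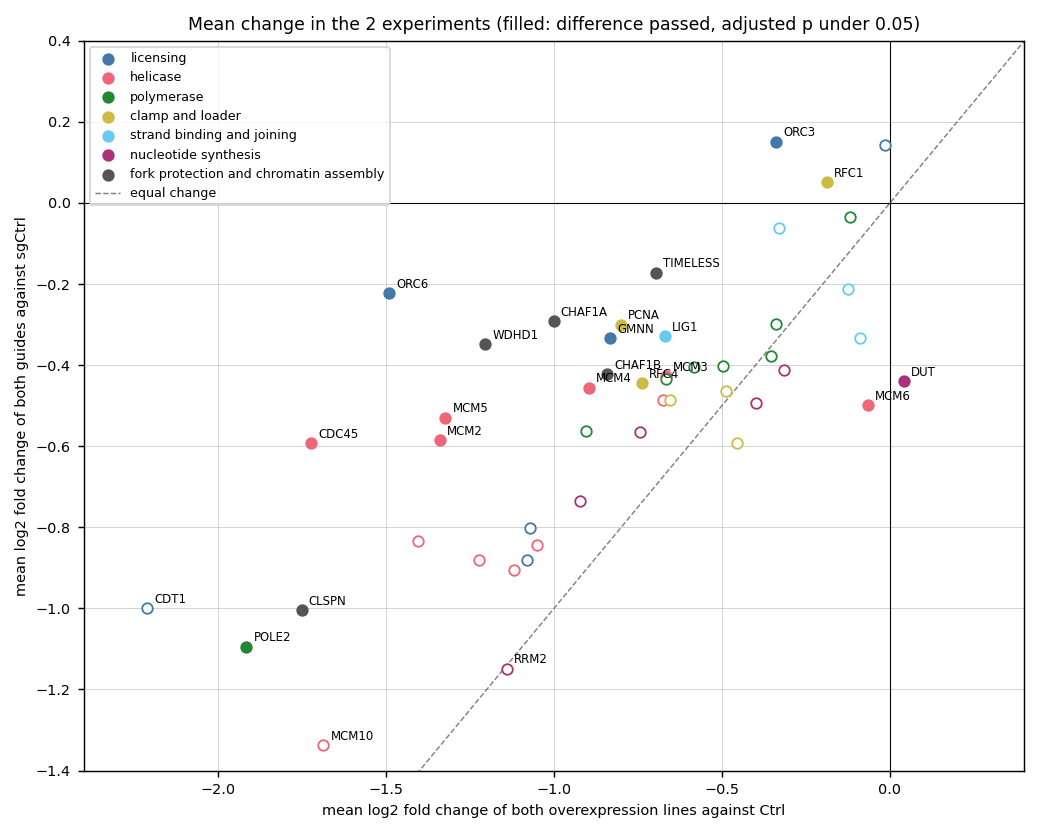
Mean log2 fold change of both overexpression lines against Ctrl (x axis) and of both guides against sgCtrl (y axis) for 48 replication genes, coloured by role, filled where the difference passed an adjusted p of 0.05; the dashed line marks equal change. Most points lie above that line, RRM2 lies on it, and MCM6 and DUT lie to its right.

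Guides and lines also differed from each other for a few members. Such calls were about as rare among all genes tested, so they are not read as a trait of the members. Guide 2 against guide 1 gave 3 members lower and 1 higher, where 3.74% and 5.51% of genes did. ORC3 (log2 -0.36 ± 0.0724, adjusted p = 0.000988), MCM4 (-0.28 ± 0.0709, adjusted p = 0.00941) and WDHD1 (-0.34 ± 0.0838, adjusted p = 0.00684) were lower with guide 2, and TK1 (0.42 ± 0.106, adjusted p = 0.00927) was higher. The MCM4 call was lost without guide 1 replicate 2 or 3 or guide 2 replicate 1 or 3 (-0.26 to -0.23) and that of TK1 without guide 1 replicate 2 or guide 2 replicate 3 (0.36 in both). Line 2 against line 1 gave 4 members higher and 0 lower, where 6.18% and 6.19% of genes did. They were RRM2 (0.39 ± 0.0628, adjusted p = 5.18e-05), TIMELESS (0.34 ± 0.0763, adjusted p = 0.00228), MCM7 (0.33 ± 0.0748, adjusted p = 0.00298) and MCM3 (0.28 ± 0.0659, adjusted p = 0.00423, lost at 0.22 without the unnumbered library 3 of line 1). PURPL itself was lower in line 2 than in line 1 (-0.50 ± 0.0571, adjusted p = 1.81e-07).

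Beyond the 50 genes, 53 other genes of replication and nucleotide supply were counted. Of 48 tested, 19 were lower and 4 higher with guide 1, and 16 were lower and 5 higher with guide 2, where 12.9% and 11.6%, and 12.4% and 11.9%, of all genes tested were. Of 47 tested, 26 fell and 2 rose in line 1, and 28 fell and 3 rose in line 2, where 20.1% and 19.5%, and 19.6% and 18.9%, of all genes did. The counts of genes that rose were no larger than those shares of all genes. Their median log2 fold changes were -0.14, -0.15, -0.26 and -0.26, smaller in size than those of the 50. TICRR (treslin, which starts origin firing) left 42.0% and 54.5% of sgCtrl and 35.3% and 41.0% of Ctrl. CDCA5 (sororin, which holds sister chromatids together from S phase on) left 50.5% and 45.2% of sgCtrl, and UHRF1, which guides methylation of new DNA, left 50.8% and 45.2%. ASF1B, a histone chaperone, left 14.7% and 35.2% of Ctrl on 1 to 36 counts a library. Named after their values were seen, those that rose with both guides were TK2 (0.41 and 0.38), SHMT2 (0.26 and 0.36) and MTHFD2 (0.31 and 0.41), enzymes of mitochondrial nucleotide and one-carbon metabolism. IMPDH2, of guanine nucleotide synthesis, rose in both lines (0.29 ± 0.0601 and 0.51 ± 0.0602).

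SAMHD1, the enzyme that breaks down deoxynucleotides and so opposes ribonucleotide reductase, had the largest change with overexpression among the 50 and the other 53 genes. It measured 281, 275 and 275 CPM in Ctrl, 35.3, 37.6 and 40.6 in line 1, and 50, 50.5 and 46.7 in line 2. It fell 7.32-fold and 5.65-fold (log2 -2.87 ± 0.0585 and -2.50 ± 0.0576, adjusted p = 1.74e-26 and 5.45e-25). With the guides it measured 89.9 to 91.2 CPM in sgCtrl, 84.1 to 86.1 with guide 1, and 91.8 to 102 with guide 2, and passed with neither (adjusted p = 0.33 and 0.389). The difference between the experiments was 2.69 ± 0.0733 (adjusted p = 9.97e-31).

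The controls of the 2 tables did not hold these genes at the same level. Control levels were compared after the data had been seen, and as the tables were scaled apart, no test was made. The median log2 ratio of Ctrl to sgCtrl was -0.28 over the tested members and -0.0441 over all genes tested in both tables. Single genes lay much further apart. TK1 was 7.72-fold, CDT1 7.61-fold and POLD1 6.12-fold higher in sgCtrl than in Ctrl, and POLD2, DTYMK, MCM2 and MCM5 were 3.23-fold, 2.74-fold, 2.5-fold and 2.48-fold higher. ORC3 was lower in sgCtrl, at 0.643 of the Ctrl level, and MCM3 and RRM1 were 1.04-fold higher, and PCNA stood at 0.945 of the Ctrl level. The log2 ratio of Ctrl to sgCtrl went down with the GC content of the longest GENCODE v29 transcript, with a Pearson r of -0.859 and Spearman rho of -0.788 across the 48 tested genes, and -0.597 and -0.60 across 13477 genes tested in both tables. These points are genes of the same 6 libraries and not replicates, and the part of GC content in the levels was not tested. Within a table, the Pearson r of GC content with the log2 fold change across the 48 genes was -0.17 and 0.0788 for guides 1 and 2, and -0.179 and -0.111 for lines 1 and 2. It was 0.465 for guide 2 against guide 1 and 0.0455 there across all genes.

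**Figure D4:**
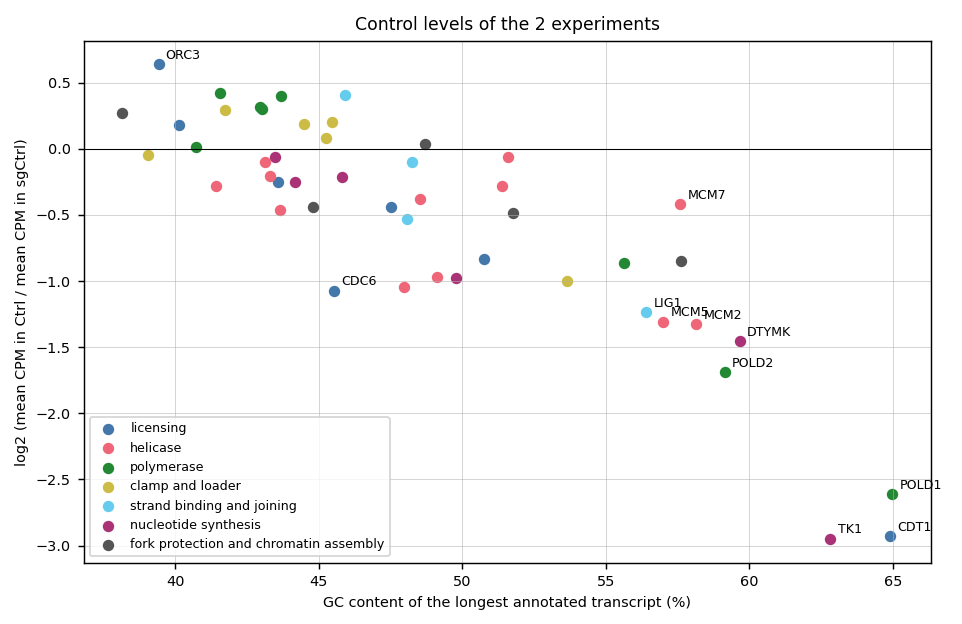
GC content of the longest annotated transcript in percent (x axis) and log2 ratio of the mean level in Ctrl to that in sgCtrl (y axis) for 48 replication genes, coloured by role. TK1, CDT1 and POLD1, with a GC content of 62.8%, 64.9% and 65.0%, lie lowest at -2.95, -2.93 and -2.61, and ORC3, at 39.4%, lies highest at 0.64.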

How the data were processed

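Poly(A) RNA of 18 libraries in 6 groups of 3 was analysed from 2 tables of raw counts per gene that the authors deposited. Tools listed per the submitters' processing notes are HISAT2 2.1.0 and featureCounts 2.0.1 of Subread, besides cutadapt 3.3, FastQC 0.11.9, DESeq2 1.34.0 and SAMtools 1.11, and the builds are GRCh38.p13 and hg38. Not given in the sources used here were the annotation release, the strand setting and how overlapping genes were counted. The labels name genomic DNA as the molecule, while their protocol describes RNA. Of the overexpression columns, 5 carry a group and no replicate number.

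Each table was fitted alone with edgeR 4.0.16 (limma 3.58.1, R 4.3.3): genes kept by filterByExpr with a minimum count of 10, TMM scaling, robust quasi-likelihood tests, and Benjamini-Hochberg adjustment over all genes kept, with a threshold of 0.05. All 3 groups of a table shared the estimate of spread. All adjusted p-values are from these tests. The difference between the experiments came from 1 such fit of all 18 libraries. Levels are CPM on TMM-scaled totals, with each table scaled apart. Changes are therefore tested within a table, and control levels are set side by side across tables as a description only. A fold change given as percent of control is the fitted one. Each ± is a standard error derived from the test, as the size of the log2 fold change divided by the square root of its quasi-likelihood F statistic.

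The members, the role lists, the marker lists (fibroblast, keratinocyte, endothelial, immune, melanocyte) and the list of 53 other genes were chosen with earlier results of these data known. Every member is named; values in each library are given for the gene with the largest mean change of its role in each table and for genes called against their role, and other genes shown by library were chosen after their values were seen. Of the 53, the 3 with the largest mean change in each table among those called in both arms are named. Alternatives were DESeq2 1.42.0, limma-voom, DESeq2's size factors, no filter on low counts, only the groups compared, a replicate block, and each library left out in turn. Replicates of a group differed by more than sampling noise, with a chi-square per gene of 2.50 to 10.9 between knockdown libraries and 3.60 to 9.02 between overexpression libraries. In the knockdown table the sgCtrl libraries differed most, at 4.325 to 10.9, against 2.50 to 2.58 for guide 1 and 2.69 to 3.31 for guide 2. The shared estimate of spread does not separate these groups. Of the 50 members 13 overlap a gene on the same strand and 11 have named pseudogenes, either of which can lower a count. The deposited gene length equals the span from start to end for 100% of genes, so reads in introns may have been counted. All 9425 genes inside a same-strand gene had 0 counts, so reads shared with the outer gene were not credited to the inner one.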

Additional observations from a re-analysis of the deposited data

Results flagged for a closer look

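The 2 guides gave different changes against their shared control for 4 genes, by the edgeR quasi-likelihood test of guide 2 against guide 1. Of 48 members 3 were lower (6.25%) and 1 higher (2.08%), where 3.74% and 5.51% of all genes were. So few calls, near the shares of all genes, are not read as a trait of the members. ORC3 differed by -0.36 (log2), MCM4 by -0.28 and WDHD1 by -0.34, so each stood lower with guide 2, and TK1 differed by 0.42 and stood higher. The libraries of guide 1 and guide 2 did not overlap for these 4 genes. As the genes were picked by the test on the same libraries, this adds no support. The MCM4 call was lost without guide 1 replicate 2 or 3 or guide 2 replicate 1 or 3 (-0.26 to -0.23), and that of TK1 without guide 1 replicate 2 or guide 2 replicate 3 (0.36 in both).

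The 2 overexpression lines differed for 4 other genes of 48 (8.33%), all higher in line 2, where 6.18% of all genes were higher and 6.19% lower. This too is not read as a trait of the members. The 4 genes were RRM2 by 0.39, TIMELESS by 0.34, MCM7 by 0.33 and MCM3 by 0.28 (log2). For these the libraries of the lines did not overlap either, which adds no support for the same reason. The MCM3 call was lost at 0.22 without the unnumbered library 3 of line 1. PURPL was itself lower in line 2, and its part in these differences was not tested.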

How the results depend on the processing

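Counts of members called lower ranged, with 1 library left out, from 28 to 35 with guide 1, 36 to 39 with guide 2, 37 to 41 in line 1 and 36 to 40 in line 2, and members called higher from 1 to 1, 0 to 1, 0 to 0 and 0 to 0. Guide 2 against guide 1 gave 2 to 3 lower and 0 to 1 higher, line 2 against line 1 gave 0 to 1 lower and 3 to 6 higher, and the difference between the experiments 2 to 3 lower and 16 to 20 higher. DESeq2 called 30, 39, 38 and 39 members lower in the 4 comparisons with controls, and limma-voom 34, 40, 42 and 39. The 1 member higher with guide 2, ORC2, became 0 with no filter on low counts, with DESeq2, with only the groups compared and with the replicate block; the cause was not tested. With the block, 33, 40 and 3 members were lower with guide 1, with guide 2 and in guide 2 against guide 1, as without it. Knockdown samples with the same number had correlations of deviations of -0.155 to 0.0571, against -0.145 to 0.19 for other numbers. Those with the same number were thus not more alike, but with 3 libraries in a group this check cannot exclude pairing. For the overexpression table and the difference between the experiments, no paired analysis was possible because 5 overexpression columns carry no replicate number.

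Of 225 single values refitted 2850 times, 10 changed sign in 26 refits, and 0 of these were called values. Their ranges with 1 library left out were -0.101 to 0.034 for RPA3 and -0.0622 to 0.0724 for POLD2 with guide 1, -0.0351 to 0.0589 for RFC1 and -0.0567 to 0.0175 for ORC3 with guide 2, -0.0269 to 0.0829 for ORC2 and -0.011 to 0.0744 for DUT in line 1, -0.0781 to 0.0254 for RPA2, -0.0085 to 0.0643 for MCM6 and -0.185 to 0.0193 for POLD2 in line 2, and -0.0509 to 0.0288 for RRM2 between the experiments. Low depth limits CDT1, POLD1 and ASF1B in the overexpression table, where single libraries held few counts.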
